A study of Mus musculus with 2 samples.

Results

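The 5 genes of the Rel family, which encode the DNA-binding subunits of NF-kB, and 5 genes that restrain or modify NF-kB were followed in mouse pancreatic cancer cells. The subunit genes were Nfkb1, Nfkb2, Rel, Rela and Relb, and the others were Nfkbia, Nfkbib, Nfkbie, Nfkbiz and Tnfaip3. They were chosen by name, and all 10 were found among the 21983 gene entries of the deposited count table. The cells belonged to 14837, a line of pancreatic ductal adenocarcinoma (PDAC) from C57BL/6 mice, cultured in DMEM with 10% serum and 100 U/ml penicillin. The labels describe 1 library of cells given medium conditioned by fibroblasts of the tumour stroma (cancer-associated fibroblasts, CAFs) and 1 library given medium conditioned by 14837 cells themselves, each for 48 h. The sources used here do not say how the CAFs were obtained or whether the line is a clone. The table's CAF column belonged to the first of these libraries by its name. The name of the other column matched neither library, so it was left aside and no comparison of the media was made. All values are therefore levels within 1 library of CAF-medium cells, with no replicate and no test, and they do not show what the medium changed.

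NF-kB is a family of transcription factors made of paired Rel proteins, held in the cytoplasm by inhibitor (IkB) proteins. Signals from receptors for TNF, interleukin-1 or microbial products activate the IKK kinase, which marks the IkB proteins for destruction, and the freed pairs enter the nucleus. Rela, Rel and Relb carry activation domains. Nfkb1 and Nfkb2 each make a large precursor that is trimmed to a DNA-binding partner, and the untrimmed precursors act as inhibitors themselves, a distinction that an RNA level cannot show. Several inhibitor genes are known targets of NF-kB, which forms a negative feedback loop. In pancreatic cancer the pathway is known for its links to inflammation and cell survival.

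Because this feedback acts through DNA, the promoters were searched for the kappaB consensus, the site that Rel proteins bind, on both strands. RefSeq windows (build GRCm38.p6) running from 250 bases before to 50 bases after an annotated start were matched to 7 of the 10 genes. The consensus occurred in at least 1 window of 5 of these 7 genes, namely Nfkb2, Nfkbia, Nfkbie, Rel and Tnfaip3, and in none of the windows of Nfkbib and Rela. Over all 27025 genes with a window the share was 9.55%, and over the 32851 windows it was 8.46%. The consensus was also in 3 of 7 AP-1 genes with a window. It was in 3 of 14 interferon regulatory factor and STAT genes with a window. A match is a description of the letters and does not show that a Rel protein was bound, nor does a window with no match show the opposite. Stretches before the start that hold matches follow, 5′ to 3′ along the gene's own strand, with each match or run of overlapping matches in capitals. They are shown because members of both kinds, subunits and inhibitors, carried them.
Nfkbia, chr12:55492649-55492777, minus strand: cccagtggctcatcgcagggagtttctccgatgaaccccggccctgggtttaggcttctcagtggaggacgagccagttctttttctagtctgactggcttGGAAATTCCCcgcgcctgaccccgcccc
Tnfaip3, chr10:19015412-19015540, minus strand: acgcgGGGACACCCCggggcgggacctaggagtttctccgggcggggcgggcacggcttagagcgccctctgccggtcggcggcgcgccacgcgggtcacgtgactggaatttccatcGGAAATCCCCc
Rel, chr11:23770971-23771099, minus strand: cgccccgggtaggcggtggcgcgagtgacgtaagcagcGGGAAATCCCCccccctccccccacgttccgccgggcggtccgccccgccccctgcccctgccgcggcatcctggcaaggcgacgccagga
Nfkbie, chr17:45555570-45555698, plus strand: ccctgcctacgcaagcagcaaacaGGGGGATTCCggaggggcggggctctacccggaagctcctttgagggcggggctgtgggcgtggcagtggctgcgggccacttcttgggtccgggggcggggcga
Nfkb2, chr19:46304692-46304721, plus strand: cgtcacGGGAATTCCCCccctcggggggcc
Matches lying just before a start were those of Nfkb2 (bases -11 to -2 before its first start, outside the stretch printed), of Tnfaip3 (-12 to -3) and of Nfkbia (-29 to -20). The match of Tnfaip3 next to its start, GGAAATCCCC, also lies in the run of Rel at -91 to -82. Just 30 bases are given for Nfkb2, since they lie in an exon of another of its transcripts and of a noncoding gene on the opposite strand (GENCODE M21). All 3 windows of Nfkb2 held a match, against 1 of 2 windows of Tnfaip3.

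**Figure D1:**
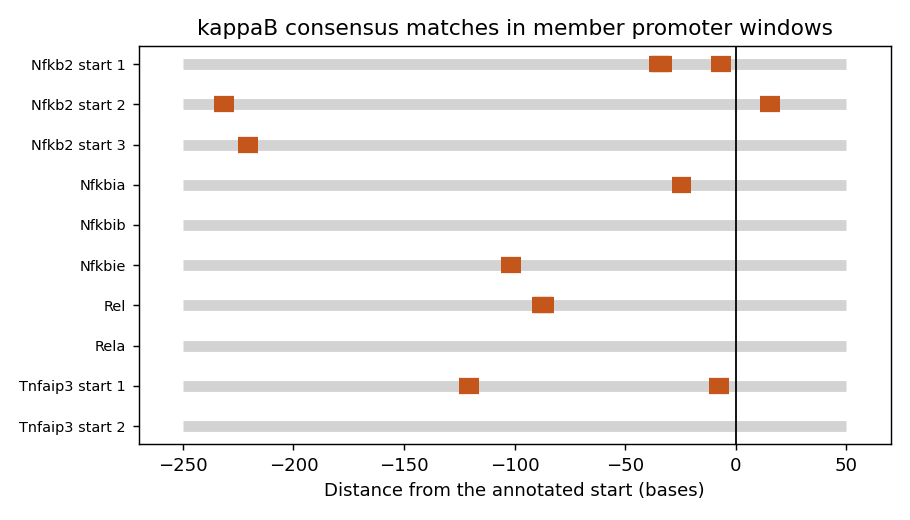
Positions of the kappaB consensus (orange) in each RefSeq promoter window (grey) of the 7 matched genes, against distance from the annotated start in bases, with windows of 1 gene numbered along its strand. Matches lie in the windows of 5 genes, while the windows of Nfkbib and Rela have none.

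The CAF-medium library held 21269197 counts. Of all entries, 52.6% had at least 10 counts, and the median of those, called the median gene below, was 806 counts or 37.9 per 1000000 counts (CPM). Keratin and E-cadherin genes marked the cells as epithelial, with Krt18 at 1819 CPM and Cdh1 at 370.0 CPM. However, 2 of 9 ductal epithelial markers were near 0, Epcam at 2 counts and Cldn4 listed at 0. Sox9, at 17.2 CPM, also lay below the median gene, which 6 of the 9 exceeded, against 26.3% of all entries. Of 10 fibroblast markers, 3 had at least 10 counts, led by Pdgfra at 34.2 CPM, the 10 summed to 37.0 CPM, and Col1a2, Col3a1, Dcn, Lum and Pdpn were listed at 0. The 8 immune markers summed to 5.78 CPM, nearly all of it Cd68, and the 5 endothelial markers to 0.470 CPM. In bulk RNA, fewer cells that express a gene and less RNA per cell cannot be told apart.

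All 10 members had at least 10 counts, and 9 of 10 exceeded the median gene, against 26.3% of all entries. Their median was 132 CPM, and together they held 0.148% of all counts. Per kilobase of the longest transcript 8 of 10 exceeded the median of entries with at least 10 counts, which splits those entries equally by construction. Rel, at 0.918 times that median, lay below it as well as Nfkbie. Nfkbie, at 8.84 CPM, lay above 21.9% of the entries with at least 10 counts. The most counted, Nfkb1, lay above 96.1% of them. Between these extremes the counts differed 40.6-fold, and 5.67-fold among the 9 others. Ranges in parentheses after levels are 95% intervals from the exact Poisson method, which reflect counting error alone.

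**Figure D2:**
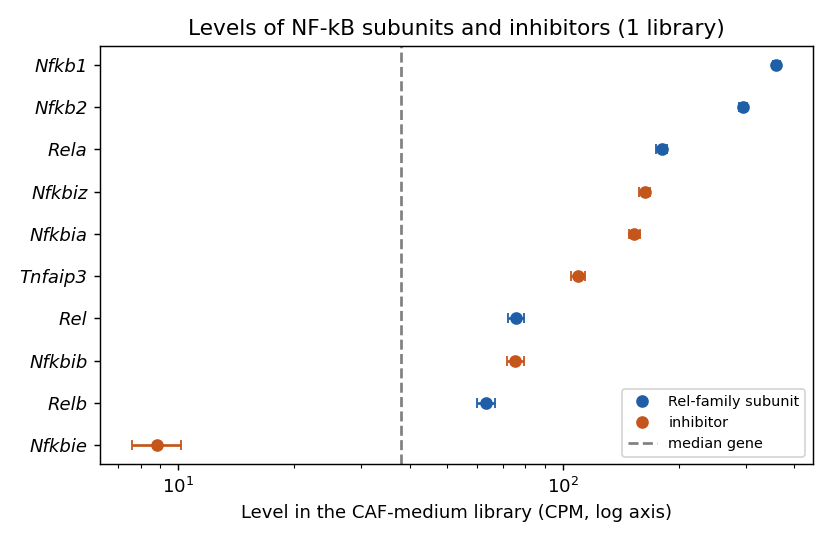
Level of each gene in the CAF-medium library in CPM on a log axis, with subunits in blue, inhibitors in orange, exact Poisson 95% intervals as bars and the median gene (37.9 CPM) as a dashed line. Nfkbie is the sole gene to the left of the line, and the 9 others run from 63.3 to 359 CPM.

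Among the subunits, the precursor genes had the most counts and the activating partners Rel and Relb the fewest. Nfkb1, whose trimmed product pairs with Rela in the best known NF-kB dimer, had 7637 counts, or 359 CPM (351 to 367), 9.48 times the median gene. It lies on chromosome 3 from 135584655 to 135691547 on the minus strand (mm10). Nfkb2, whose trimmed product pairs with Relb in the slower alternative pathway, had 6257 counts, or 294 CPM (287 to 302). It lies on chromosome 19 from 46304320 to 46312385 on the plus strand, and exons of other genes overlap 18.1% of its exonic bases. Both thus stood among the more highly counted genes of the library, at ranks 454 and 640 of all entries.

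Rela, the main activating subunit of the classical pathway, had 3846 counts, or 181 CPM (175 to 187). It lies on chromosome 19 from 5637483 to 5648130 on the plus strand. Rel, the activating subunit best known from lymphocytes, had 1611 counts, or 75.7 CPM (72.1 to 79.5), on chromosome 11 from 23736847 to 23770970, minus strand. Relb, the activating subunit of the alternative pathway, had 1347 counts, or 63.3 CPM (60.0 to 66.8), on chromosome 7 from 19606217 to 19629438, minus strand. Rel and Relb were 2.0 and 1.67 times the median gene in CPM, and Rela 4.77 times.

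Long genes collect more counts, so levels of different genes are compared per kilobase. Per kilobase of merged exons, Nfkb2 stood at 64.2 CPM and Rela at 58.9 CPM, the highest of the subunits. Nfkb1 stood at 29.8 CPM per kilobase of its 12.1 kb of merged exons but at 86.5 CPM per kilobase of its longest transcript of 4.15 kb, so its place depends on the length used. Relb stood at 16.3 CPM and Rel at 10.1 CPM per kilobase of merged exons, with 19.3 and 10.1 CPM per kilobase of the longest transcript. Rela was thus 5.8 times Rel and 3.61 times Relb per kilobase of merged exons, and 6.56 and 3.44 times per kilobase of the longest transcript. With coding length in place of exons the ratio of Rela to Rel was 2.56.

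Of the summed level of the 5 subunits per kilobase of merged exons, Nfkb2 made up 35.8%, Rela 32.8%, Nfkb1 16.6%, Relb 9.09% and Rel 5.66%. Per kilobase of the longest transcript Nfkb1 made up the most, 33.4%, followed by Nfkb2 at 29.5% and Rela at 25.7%. Rel and Relb had the smallest shares under both lengths, and also with coding length, where Relb and Rel changed places, at 8.95% and 10.2%. The partners of the alternative pathway were unequal, with Nfkb2 at 3.94 times Relb per kilobase of merged exons and 3.95 times per kilobase of the longest transcript. The precursor genes Nfkb1 and Nfkb2 summed to 1.1 times the 3 activating subunits per kilobase of merged exons, and to 1.7 times per kilobase of the longest transcript.

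Among the inhibitors, Nfkbiz and Nfkbia had similar counts and Nfkbie few. Nfkbia encodes IkB-alpha, the classical inhibitor that is destroyed and made again during signalling. It had 3265 counts, or 154 CPM (148 to 159), on chromosome 12 from 55489410 to 55492647, minus strand. Nfkbib, encoding IkB-beta, had 1602 counts, or 75.3 CPM (71.7 to 79.1), on chromosome 7 from 28758251 to 28767512, minus strand, with 16.4% of its exonic bases overlapped by exons of other genes. Nfkbie, encoding IkB-epsilon, had 188 counts, or 8.84 CPM (7.62 to 10.2), on chromosome 17 from 45555703 to 45563169, plus strand. The 3 classical inhibitors thus covered a wide range, with Nfkbia at 2.75 times Nfkbib and 32.8 times Nfkbie per kilobase of merged exons. Per kilobase of the longest transcript these ratios were 2.66 and 33.1. Nfkbie had the lowest level of the 10 genes under each of the 3 lengths. Its promoter stretch printed above carries a kappaB match, and a link between match and level was not tested.

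Nfkbiz encodes a nuclear IkB protein that works with NF-kB on chromatin and helps to switch on a subset of its targets. It had 3472 counts, or 163 CPM (158 to 169), on chromosome 16 from 55811375 to 55838899, minus strand. Tnfaip3 encodes a ubiquitin-editing enzyme that shuts down signalling above IKK. It had 2331 counts, or 109.6 CPM (105 to 114), on chromosome 10 from 19000910 to 19015657, minus strand. Per kilobase of merged exons Nfkbia, at 95.3 CPM, was 2.93 times Nfkbiz and 6.29 times Tnfaip3, whose values were 32.5 and 15.2 CPM.

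Ordered by counts, the 10 genes ran Nfkb1, Nfkb2, Rela, Nfkbiz, Nfkbia, Tnfaip3, Rel, Nfkbib, Relb and Nfkbie. Of the 9 neighbouring pairs in this order, Rel and Nfkbib had counts that did not differ beyond counting error. Their ratio of counts was 1.01 (exact binomial 95% interval 0.938 to 1.08). Per kilobase of merged exons they were far apart, with Rel at 10.1 CPM and Nfkbib at 34.7 CPM. The counts of Nfkbiz and Nfkbia differed little, at a ratio of 1.06 (1.01 to 1.12), and no culture replicate exists against which to set so small a difference. Per kilobase the order was another one, since Nfkbia came first under merged exons, longest transcript and coding length alike. Nfkb1 came sixth under merged exons and second under the other lengths. Nfkbie came last under all 3, and Rel ninth under merged exons and longest transcript and eighth under coding length.

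**Figure D3:**
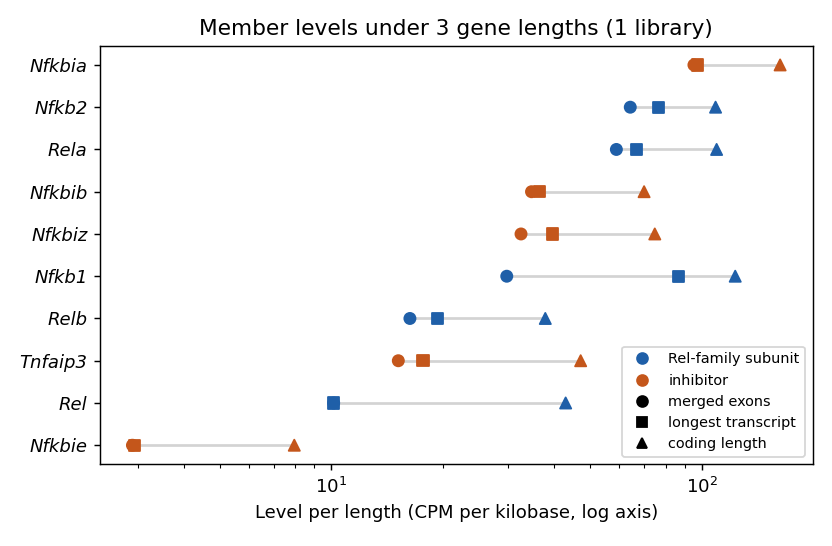
Level of each gene per kilobase in the CAF-medium library on a log axis, with merged exons (circles), longest transcript (squares) or coding length (triangles) as the length, subunits in blue and inhibitors in orange. Nfkbia lies rightmost and Nfkbie leftmost under each length, and Nfkb1 moves most between merged exons and longest transcript, from 29.8 to 86.5 CPM per kilobase.

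Set against each other, subunit and inhibitor genes had sums that differed less per length than in counts. The subunits had 1.91 times the counts of the 5 inhibitors (1.86 to 1.95). Their summed levels were 179 and 181 CPM per kilobase of merged exons, a ratio of 0.992, and 259 and 194 CPM per kilobase of the longest transcript, a ratio of 1.33. Of the inhibitors' sum, Nfkbiz, whose product also helps to switch on targets, made up 32.0% in counts and 18.0% per kilobase of merged exons. Against Nfkbia, Nfkbib and Nfkbie alone, the subunits summed to 1.35 times per kilobase of merged exons and 1.89 times per kilobase of the longest transcript. Nfkbia and its main partner Rela differed by 1.62 times per kilobase of merged exons and 1.46 times per kilobase of the longest transcript, with Nfkbia higher, although Nfkbia had 0.849 times the counts of Rela.

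The machinery that acts on these proteins was present unevenly. Beside the list counts that follow stand the shares of all entries, 52.6% with at least 10 counts and 26.3% above the median gene. Of 11 genes for kinases and their partners, 10 had at least 10 counts, at a median of 52.5 CPM, and 8 exceeded the median gene. Per kilobase of merged exons 5 of those 10 exceeded the median of entries with at least 10 counts, against 50% of those entries by construction. The catalytic IKK subunit Chuk led at 264 CPM, or 51.9 CPM per kilobase of merged exons. The other catalytic subunit, Ikbkb, stood at 50.1 CPM and 2.62 CPM per kilobase, and the scaffold subunit Ikbkg at 55.0 CPM and 6.78 CPM per kilobase. Per kilobase of the longest transcript Chuk stood at 75.4 CPM, Ikbkb at 10.3 CPM and Ikbkg at 7.86 CPM. The order of Ikbkb and Ikbkg thus depends on the length used. Tab2 and Map3k7, which activate IKK, stood at 186.5 and 99.4 CPM and the IKK-related kinase Tbk1 at 72.4 CPM. Map3k14, the kinase that starts the alternative pathway, stood at 22.1 CPM, and Map3k8 had 1 count. All 5 genes of the ubiquitin ligase that marks IkB proteins for destruction exceeded the median gene, led by its substrate receptor Fbxw11 at 309 CPM. Skp1a stood at 220.3 CPM, Cul1 at 155 CPM and Rbx1 at 50.5 CPM.

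Receptors and adaptors were mixed. Of 10 receptors, 8 had at least 10 counts, at a median of 26.5 CPM. The median gene was exceeded by 3 of 10, close to the share over all entries, 26.3%. Ltbr, the lymphotoxin receptor that feeds the alternative pathway, stood at 221 CPM, or 94.1 CPM per kilobase of merged exons, and Tnfrsf1a, the main TNF receptor, at 177 CPM and 68.3 CPM per kilobase. The interleukin-1 receptor Il1r1 stood at 54.9 CPM and the endotoxin receptor Tlr4 at 27.1 CPM, while Cd40 and Il1rap were listed at 0, for which a limit of 3 counts, or 0.141 CPM, is used (one-sided, while the Poisson intervals have 2 sides and an upper bound for a count of 0 of 0.173 CPM). Of 14 adaptors, 13 had at least 10 counts, at a median of 36.2 CPM, and 6 exceeded the median gene. Per kilobase of merged exons 4 of those 13 exceeded the median of entries with at least 10 counts, against 50% of those entries. Traf3, which keeps the alternative pathway off, led at 122 CPM, followed by Irak1 at 114 CPM, Traf2 at 78.7 CPM and Myd88 at 63.9 CPM, and Traf5 was listed at 0. The 3 genes of the linear ubiquitin ligase, Rbck1, Rnf31 and Sharpin, stood at 64.1, 52.9 and 35.9 CPM.

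Other brakes were likewise uneven. All 10 partners of Tnfaip3 and related enzymes had at least 10 counts, at a median of 85.5 CPM, and 6 exceeded the median gene. Per kilobase of merged exons 6 of the 10 exceeded the median of entries with at least 10 counts, against 50% of those entries. Otud7b, a deubiquitinase that stabilises TRAF3, stood at 359.7 CPM, and Tax1bp1, an adaptor of the Tnfaip3 enzyme, at 251 CPM. Rnf11 and Itch, its other ubiquitin partners, stood at 184 and 136 CPM. Of 7 further IkB-related genes, 1 exceeded the median gene. This was Nkiras2, which encodes a small GTPase-like protein that binds IkB proteins, at 101 CPM, against 34.2 CPM for the nuclear IkB gene Bcl3, 15.6 CPM for Nfkbil1 and 7.99 CPM for Pdlim2, which targets nuclear Rela for destruction. Nfkbid, another nuclear IkB gene, was listed at 0. Nuclear IkB genes thus differed widely, with Nfkbiz at 32.5 and Bcl3 at 13.8 CPM per kilobase of merged exons.

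Known NF-kB targets covered the widest range of the pathway lists. Of 31 target genes, 27 had at least 10 counts, at a median of 85.9 CPM, and 20 exceeded the median gene. Per kilobase of merged exons 23 of those 27 exceeded the median of all entries with at least 10 counts, against 50% of those entries by construction. The 4 with the most counts were the prostaglandin synthase gene Ptgs2 and the chemokine genes Cxcl5, Cxcl3 and Cxcl10, whose products draw in leukocytes. Per kilobase of merged exons they stood at 364, 537, 137 and 196 CPM, in that order. Each exceeded the level of Nfkbia, the highest member per kilobase. Tnf and Cd83 were listed at 0, and Cxcl1 and Mmp9 had 1 count each. The list holds genes chosen for known control by NF-kB, and levels in 1 library do not show how much of any gene's RNA depended on it.

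**Figure D4:**
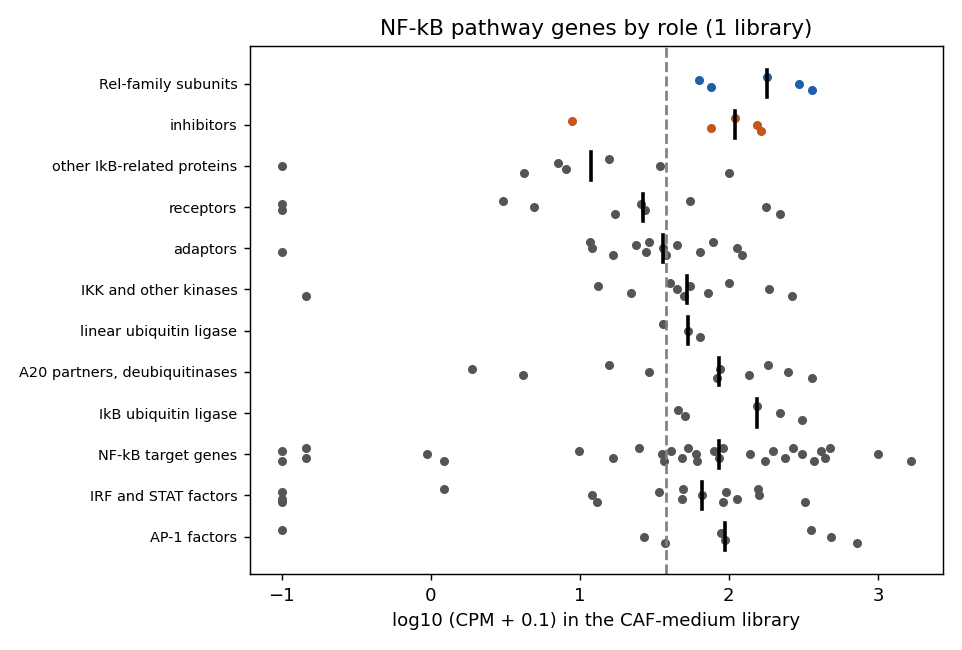
Level of every listed gene in the CAF-medium library as log10 of CPM plus 0.1, by role, with black bars at the median of genes with at least 10 counts and the median gene as a dashed line. The subunits all lie right of the line, and targets run from listed at 0 to 1665 CPM.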

How the data were processed

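Per the labels, each library started from 2 ug of total RNA. The tools named in the submitters' processing notes are StringTie and HISAT2 2.1.0, with the build mm10 and no role for each. The sources used here do not give the counting step, strand setting or annotation, so reads of overlapping genes cannot be told apart. The deposited values are whole-number counts per gene symbol made by the authors. Of 2 value columns, 1 matched no sample and was not used, so the planned comparison of media was not made. Counts were divided by the column total and multiplied by 1000000 (CPM). Exact Poisson and binomial 95% intervals cover counting error only, and take each read as independent. Reads can be copies of 1 molecule, so the intervals can be too narrow. Lengths and coordinates came from GENCODE M21 (mm10), to which 99.6% of entries matched. For the members, at most 0.781% of 64-base transcript windows occurred in other genes. The kappaB consensus was searched in RefSeq promoter windows, and the scripts were tested on simulated data. Genes named are the 10 members and, of each other list, up to 4 of the highest by CPM and those listed at 0. Outside this rule, Cdh1 is named as a marker, and Cyld, Tnip1 and Tnip3 as genes with a kappaB match. Ikbkb, Ikbkg, Map3k8, Map3k14, Cxcl1, Mmp9 and Epcam were added after their values were seen, and 1 gene that meets the rule is not reported here. The members and lists were chosen with earlier results of these data known. Software was scipy 1.17.1, numpy 2.4.6 and pandas 2.3.3 under Python 3.11.15, with matplotlib 3.10.9 for plots.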

Additional observations from a re-analysis of the deposited data

How the results depend on the processing

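The number of members above the median gene was 9 whether the minimum was dropped or raised to 100 counts, and per kilobase of merged exons. It was 8 per kilobase of the longest transcript and 9 per kilobase of coding length, and 5 genes had a kappaB match also within the 250 bases before the start. These last 3 alternatives were chosen after seeing the data. The medians per kilobase are those of entries with at least 10 counts, so each splits these entries equally by construction. Leaving out the 100 highest entries from the total multiplied every CPM by 1.16, and leaving out genes of the mitochondrial genome by 1.01. The ratios of counts between members depended on length. Per kilobase of merged exons and of the longest transcript, in that order, Nfkb1 to Nfkb2 (1.22 in counts) came to 0.464, a reversal, and 1.13, and Nfkb1 to Rela (1.99) to 0.506, a reversal, and 1.3. Nfkbia to Rela (0.849) reversed to 1.62 and 1.46, and Nfkbia to Nfkbiz (0.94) to 2.93 and 2.45. The other 6 kept their direction: Rela to Rel (2.39) came to 5.8 and 6.56, Rela to Relb (2.86) to 3.61 and 3.44, and Nfkb2 to Relb (4.65) to 3.94 and 3.95. Nfkbia to Nfkbib (2.04) came to 2.75 and 2.66, Nfkbia to Nfkbie (17.4) to 32.8 and 33.1, and Nfkbia to Tnfaip3 (1.4) to 6.29 and 5.5. These shifts follow from the lengths by construction. No paired analysis was possible because 1 library was used, and for the same reason no replicate could be left out and the alternatives planned for the comparison of media were not run. At 188 counts, Nfkbie was the member whose level the depth limited most.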

Other observations

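Other families of signal-dependent transcription factors gave a scale for the Rel genes in the same library. Of 8 AP-1 genes, 7 had at least 10 counts and 5 exceeded the median gene, against 52.6% and 26.3% of all entries. The median of those 7, without Jund, was 36.6 CPM per kilobase of merged exons, against 29.8 CPM per kilobase for the 5 Rel subunits. The order was the opposite per kilobase of the longest transcript, at 44.8 against 66.6 CPM, and in CPM without regard to length, at 94.4 against 181 CPM. Junb led at 316 CPM per kilobase of merged exons, followed by Fosl1 at 238 CPM per kilobase, with 57.2% of its exonic bases overlapped by exons of another gene. Jund was listed at 0, and exons of another gene overlap 52.6% of its exonic bases, and no gene listed at 0 is called unexpressed here. Of 16 interferon regulatory factor and STAT genes, 13 had at least 10 counts and 9 exceeded the median gene. The median of those 13 was 12.2 CPM per kilobase of merged exons. Irf7 stood at 42.5 CPM per kilobase and Irf9 at 29.0 CPM per kilobase. Irf4, Irf8 and Stat4, factors best known from blood cells, were listed at 0. All 5 Rel genes had at least 10 counts. No test of these differences was made.

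The kappaB consensus was found in the promoter windows of 12.3% of 9132 genes with at least 10 counts and of 8.9% of 7369 genes with fewer. Of the 31 target genes 23 had a window, and 14 of these held the consensus, a list chosen for known control by NF-kB. Of 7 partners of Tnfaip3 and related enzymes with a window, 4 held it, namely Cyld, Tax1bp1, Tnip1 and Tnip3, and of 5 further IkB-related genes it was found in Bcl3 and Nfkbid. It was found in 3 of 8 receptor genes with a window, 2 of 13 adaptor genes, 1 of 8 genes for kinases and their partners, 0 of 2 of the linear ubiquitin ligase and 0 of 3 of the ligase that marks IkB proteins.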
